A study of Mus musculus with 12 samples.

Results

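Distal regions that were open mainly in multipotent progenitors (MPP) were followed across MPP and long-term haematopoietic stem cells (LT-HSC), with and without Phf6. They were 1664 of 188262 accessible regions measured by ATAC-seq, an assay that reads open DNA from where a transposase can insert adapters. The members were chosen by measured values: autosomal regions over 1 kb from both ends of every protein-coding RefSeq gene and within 100 kb of a gene body (GRCm38), whose mean in wild-type (WT) MPP was 5 CPM or more (counts scaled to the library's total) and at least 4 times the mean in WT LT-HSC. They made up 1.15% of the 144561 distal regions that met the conditions on position, and all 1664 passed the filter on low counts.

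The series held 12 libraries from male mice in 4 groups of 3, WT and Phf6 knockout (KO) LT-HSC and WT and KO MPP. WT mice had an intact, loxP-flanked Phf6 and lacked Cre (Phf6f/Y Rosa26+/+). KO mice carried the deleted allele and, at Rosa26, a Cre recombinase that tamoxifen activates (Phf6-/Y Rosa26+/Cre-ERT2), so that an effect of Cre-ERT2 and of Phf6 loss cannot be told apart. Per the labels, 20000 LT-HSC were sorted from individual mice of each genotype, 8 weeks after tamoxifen. The labels used here do not say how MPP were prepared or which libraries came from 1 animal, so p-values measure the spread between these samples, which may in part be technical. Phf6 is an X-linked gene for a chromatin-bound nuclear protein.

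LT-HSC are rare, mostly quiescent cells that sustain blood formation. MPP are their dividing descendants, which have lost long-term self-renewal and give rise to the myeloid and lymphoid lineages. Much of what separates such closely related cells lies in distal elements, many of them enhancers, which bind lineage factors such as PU.1, C/EBP and RUNX proteins and can act on a promoter from afar. An open region far from a gene end is a candidate for such an element. Accessibility alone does not show that such a region acts on the gene it is named for here. Some RefSeq start lay within 1 kb of 78 members. It was that of a non-coding gene at 58 and of a protein-coding gene, whose ends were farther off, at 20.

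Total counts ran from 22665988 to 48547234 per library. The member regions held a median of 201.5 to 414.5 counts in the MPP libraries and of 27.0 to 45 counts in the LT-HSC libraries, so the level in LT-HSC is the less precise of the pair. Gene-end regions took 37.83% to 38.86% of the counts in WT LT-HSC, 39.17% to 39.62% in KO LT-HSC, 39.16% to 41.02% in WT MPP and 40.97% to 41.44% in KO MPP. At the strongest gene-end region of each of 4 MPP marker genes (Cd48, Flt3, Cd34 and Mpo) the summed level was 104.0 to 108.0 CPM in WT MPP and 59.9 to 61.3 CPM in WT LT-HSC. All 4 were higher in KO MPP than in KO LT-HSC. Of 6 LT-HSC marker genes, Mecom, Slamf1, Fgd5 and Hoxb5 were lower in KO MPP, while Hlf and Procr had adjusted p = 0.469 and 0.464. The labels therefore matched the direction of most but not all of these markers.

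The sequences of member regions can be read only where a RefSeq start site lies inside them, most often that of a non-coding RNA, because the rule removed the ends of protein-coding genes. Windows from 250 bases before to 50 bases after each start, from RefSeq on GRCm38, shared 200 bases or more with 26 members (29 windows). The following 5 are shown because they were the 3 with the highest level in WT MPP and the 2 with the most motif matches among the 8 most open ones on the chromosomes read for sequence. They are written 5′ to 3′ on the strand of the named start. Capitals mark GAGGAA, the core of PU.1 sites, TTGCNNAA, a C/EBP-like pattern, and TGTGGT, a RUNX-like pattern, on either strand.

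Spen, start of B330016D10Rik, chr4:141545912-141546211, plus strand: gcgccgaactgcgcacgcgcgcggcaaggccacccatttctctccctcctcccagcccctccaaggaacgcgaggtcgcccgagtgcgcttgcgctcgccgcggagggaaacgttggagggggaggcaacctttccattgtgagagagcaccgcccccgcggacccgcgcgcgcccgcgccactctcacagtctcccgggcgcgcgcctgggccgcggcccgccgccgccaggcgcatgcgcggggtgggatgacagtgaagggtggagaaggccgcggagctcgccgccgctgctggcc
Pced1b, start of Gm33325, chr15:97343161-97343372, minus strand: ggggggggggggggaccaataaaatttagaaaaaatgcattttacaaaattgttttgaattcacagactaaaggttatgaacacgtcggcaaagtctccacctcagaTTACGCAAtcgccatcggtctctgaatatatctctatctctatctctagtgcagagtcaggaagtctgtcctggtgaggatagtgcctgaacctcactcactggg
Acod1, start of Gm41235, chr14:103048691-103048990, minus strand: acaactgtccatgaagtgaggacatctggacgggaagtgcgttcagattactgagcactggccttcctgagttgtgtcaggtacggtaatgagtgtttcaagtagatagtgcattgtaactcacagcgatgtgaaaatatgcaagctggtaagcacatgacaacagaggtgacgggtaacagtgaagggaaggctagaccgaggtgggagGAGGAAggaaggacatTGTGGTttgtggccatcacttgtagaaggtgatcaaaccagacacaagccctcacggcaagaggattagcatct
Klf13, start of Gm32633, chr7:64001654-64001953, plus strand: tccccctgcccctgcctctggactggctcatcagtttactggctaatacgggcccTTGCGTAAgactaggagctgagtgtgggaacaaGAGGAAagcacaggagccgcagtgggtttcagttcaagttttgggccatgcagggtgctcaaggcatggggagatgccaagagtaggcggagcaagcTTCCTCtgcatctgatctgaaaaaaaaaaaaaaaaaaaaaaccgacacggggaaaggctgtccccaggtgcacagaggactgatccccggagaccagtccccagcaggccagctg
Lnpk, start of Gm39852, chr2:74606183-74606482, minus strand: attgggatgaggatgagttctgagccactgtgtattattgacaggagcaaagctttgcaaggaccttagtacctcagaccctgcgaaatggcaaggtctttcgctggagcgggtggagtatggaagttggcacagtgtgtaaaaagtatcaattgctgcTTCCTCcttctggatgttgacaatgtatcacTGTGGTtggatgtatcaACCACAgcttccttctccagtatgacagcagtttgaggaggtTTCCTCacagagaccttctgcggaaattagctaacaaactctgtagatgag

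The Spen region held none of the 3 patterns and was the most open of these, with CPM of 45.6, 42.0 and 36.8 in WT MPP and 10.4, 8.84 and 9.38 in WT LT-HSC. It lies 7.18 kb from Spen, the gene for a transcriptional corepressor. The Pced1b region, with a single C/EBP-like match, held 21.3, 20.6 and 23.3 CPM in WT MPP and 0.999, 0.918 and 1.44 CPM in WT LT-HSC. In the KO libraries it held 19.4, 16.9 and 17.8 CPM in MPP and 0.919, 0.595 and 0.750 CPM in LT-HSC, which do not overlap. The Acod1 region, described further on, carried 1 PU.1-like and 1 RUNX-like match. The Klf13 region, near the gene for a Krüppel-like transcription factor, carried 2 PU.1-like matches and 1 C/EBP-like match. It held 11.5, 13.7 and 9.99 CPM in WT MPP against 0.881, 0.861 and 1.5 CPM in WT LT-HSC. The Lnpk region carried 2 PU.1-like and 2 RUNX-like matches, at 11.3 ± 1.23 CPM against 1.78 ± 0.366 CPM in the same groups (mean ± SD, n = 3).

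Across all 29 start windows in members the C/EBP-like pattern was present in 7 (24.1%), against 10.8% of all 32851 RefSeq windows. The RUNX-like pattern was present in 8 (27.6% against 16.8%), and the PU.1-like in 11 (37.9% against 28.3%). The GATA-like pattern AGATAA was found in 5 (17.2% against 11.2%). An E-box, CAGCTG, was found in 6 (20.7% against 16.3%). TGANTCA, an AP-1-like pattern, was in none of the 29 and in 7.81% of all windows. These are matches of letters on either strand in a small and selected set of windows, given as a description with no test. Another 36 windows overlapped, by the same limit, distal regions chosen by the rule turned round, which were open mainly in LT-HSC. In these the C/EBP-like pattern was in 11.1%, the RUNX-like in 13.9% and the PU.1-like in 44.4%. The GATA-like was in 19.4%, the E-box in 22.2% and the AP-1-like in 11.1%.

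Hairpins of 10 microRNA genes lay within 5 kb of a member. One was the hairpin of Mir146b, 757 bp from a member. Its 2 mature arms, with the seed (bases 2 to 8) in capitals, are shown because this microRNA is known to damp NF-kB signalling in blood cells, a choice made after the list was seen.

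mmu-miR-146b-5p: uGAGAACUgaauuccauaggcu
mmu-miR-146b-3p: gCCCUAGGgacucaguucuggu

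The region (chr19:46343627-46344228, assigned to Cuedc2) held 8.57 ± 0.592 CPM in WT MPP (SD, n = 3, as for every mean below) and 0.982 ± 0.381 CPM in WT LT-HSC. In KO it held 11.0 ± 0.0448 CPM in MPP and 1.39 ± 0.101 CPM in LT-HSC. Another member (chr7:25217634-25218072, assigned to Dedd2) contained the whole hairpin of Mir7048, at 7.39 ± 0.381 CPM in WT MPP and 1.82 ± 0.196 CPM in WT LT-HSC.

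The levels that chose the members were low in LT-HSC and moderate in MPP. The median member had a mean of 1.25 CPM in WT LT-HSC (range 0.166 to 12.2) and 7.99 CPM in WT MPP (5.0 to 73.2). Its MPP to LT-HSC ratio in WT had a median of 6.18. The ratio was between 4 and 5 in 494 members, 10 or more in 352 and 20 or more in 50, and 1118 members had a WT MPP level under 10 CPM. Since these values made the rule they are descriptions. Just inside the ratio limit lay regions at H60b (11.5 and 2.87 CPM in WT MPP and LT-HSC) and Tifab (7.31 and 1.82 CPM). Just outside it lay regions at Rgs3 (29.1 and 7.28 CPM) and Fbxo11 (11.5 and 2.89 CPM). Just outside the level limit was a region near Dntt, the terminal transferase gene of lymphoid progenitors, at a WT MPP to LT-HSC ratio of 13.2.

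The KO libraries took no part in the choice, so they test whether the same regions opened from LT-HSC to MPP without Phf6. All 1664 members were higher in KO MPP than in KO LT-HSC, with a median log2 fold change of 2.60 (quartiles 2.22 and 3.18). Of all 186373 regions tested 33.3% were higher in this comparison (edgeR's quasi-likelihood test, adjusted p under 0.05 by Benjamini-Hochberg over all of them). In 1663 members the lowest of the 3 KO MPP libraries lay above the highest of the 3 KO LT-HSC libraries. The share of all regions with such a gap is not given here, so that count is a description. The median KO level was 1.18 CPM in LT-HSC and 7.53 CPM in MPP, and the median KO ratio was 6.06, with a lowest of 2.59 and a highest of 56.3. A ratio of 3 or more was kept by 1653 members. Across the 1664 members the log2 ratios in WT and KO had a Pearson r of 0.907, a description over regions that share libraries. In these bulk libraries, fewer cells with an open region and less accessibility per cell cannot be told apart.

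**Figure D1:**
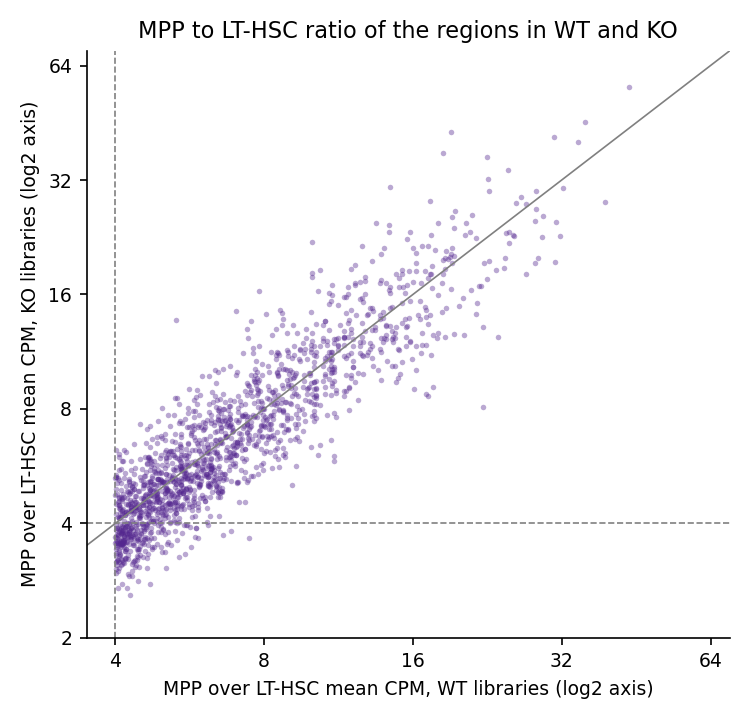
MPP over LT-HSC ratio of mean CPM in WT (x) and KO (y) libraries for each of the 1664 regions, both on log2 axes, with the diagonal and dashed lines at 4. Every point lies at 4 or more on x by the rule, and on y the points run from 2.59 to 56.3.

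Applied to the KO libraries in place of the WT libraries, the same rule chose 1547 regions. It shared 1229 with the members, which is 73.9% of the members and 79.4% of the regions chosen in KO. Of the 435 members it missed, 208 had a KO ratio under 4 alone, 200 had a KO MPP level under 5 CPM alone and 27 had both.

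In each library the members took up a small part of all counts. They held 1.59% to 1.74% of the counts in WT MPP, 1.49% to 1.55% in KO MPP, 0.248% to 0.294% in WT LT-HSC and 0.255% to 0.263% in KO LT-HSC. WT MPP library 2 was the highest of the MPP libraries and WT LT-HSC library 3 the highest of the LT-HSC libraries. The KO and WT ranges did not overlap in MPP and overlapped in LT-HSC. Because the WT means chose the regions, the gap in MPP cannot be read as an effect of Phf6 from these values.

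**Figure D2:**
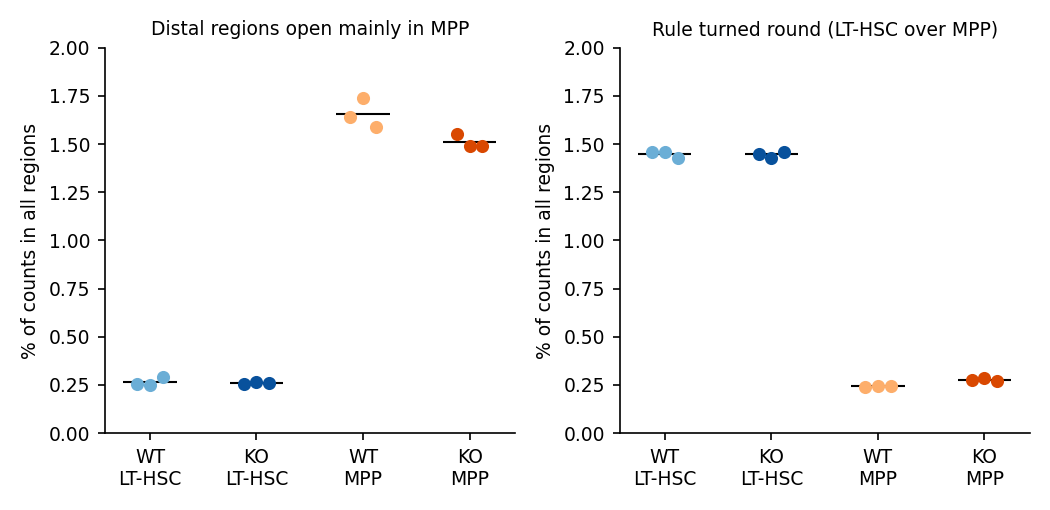
Percent of each library's counts that fell in the 1664 regions (left) and in the 1426 distal regions chosen by the rule turned round (right), 1 point per library and a line at the group mean. On the left the MPP libraries lie between 1.49% and 1.74% and the LT-HSC libraries between 0.248% and 0.294%.

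The strongest members lay in or near genes of several functions. They were picked for the highest WT MPP means, so lower values in KO MPP among them cannot be read as an effect of Phf6. The region with the highest WT MPP level was in the body of Panx1, the gene for an ATP-releasing membrane channel (chr9:15018044-15018582). It held 70.2, 81.2 and 68.2 CPM in WT MPP and 11.0, 9.70 and 13.9 CPM in WT LT-HSC. In KO it held 58.9, 54.8 and 49.5 CPM in MPP and 9.46, 10.5 and 10.1 CPM in LT-HSC (log2 fold change 2.45 ± 0.10, SE, edgeR adjusted p = 8.86e-20). The populations were far apart in both genotypes, and every KO MPP library was below every WT MPP library (log2 fold change -0.40 ± 0.08, adjusted p = 0.00271).

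Il17ra, the gene for a receptor subunit of the inflammatory cytokine interleukin 17, had a member in its body (chr6:120473500-120473980) with 48.8, 56.6 and 50.7 CPM in WT MPP and 9.46, 10.3 and 11.6 CPM in WT LT-HSC. KO MPP held 41.8, 39.5 and 37.2 CPM and KO LT-HSC 9.38, 10.4 and 9.53 CPM. Here too the KO MPP libraries lay below those of WT (log2 fold change -0.37 ± 0.07, adjusted p = 0.00177). Btbd9, a BTB-domain gene, had a member (chr17:30518850-30519400) at 57.8 ± 1.73 CPM in WT MPP and 37.3 ± 5.51 CPM in KO MPP, and it was lower in KO in both populations (log2 fold change -0.60 ± 0.08 in MPP and -0.47 ± 0.10 in LT-HSC). By contrast, the members in Smyd3 and Padi2 had genotype differences in MPP with edgeR adjusted p = 0.882 and 0.349. The one in Smyd3, a lysine methyltransferase gene, held 52.0 ± 2.72 CPM in WT MPP and 52.0 ± 4.96 CPM in KO MPP. In Padi2, a peptidylarginine deiminase gene, these were 46.2 ± 1.94 and 41.8 ± 2.24 CPM. There every KO MPP library still lay below every WT MPP library.

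Further members among the most open were at Spen, Ctif, a translation initiation factor gene, Emc3, an endoplasmic reticulum membrane complex gene, Runx3, a RUNX transcription factor gene, Ldlrad4, an inhibitor of TGF-beta signalling, and Adgrg3, an adhesion receptor gene of granulocytes. Their WT MPP means ran from 35.7 to 41.5 CPM. The one near Runx3 (chr4:135192793-135193252, 14.8 kb from the gene) held 35.2, 37.0 and 42.2 CPM in WT MPP and 33.4, 31.9 and 26.9 CPM in KO MPP, ranges that did not overlap, with log2 fold change -0.28 ± 0.09 and adjusted p = 0.0435. Of the highly open members named here, those at Panx1, Btbd9, Il17ra, Ctif, Emc3, Runx3 and Adgrg3 were lower in KO MPP. None passed as higher. Nothing is read from that direction, because the WT MPP means picked these regions.

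**Figure D3:**
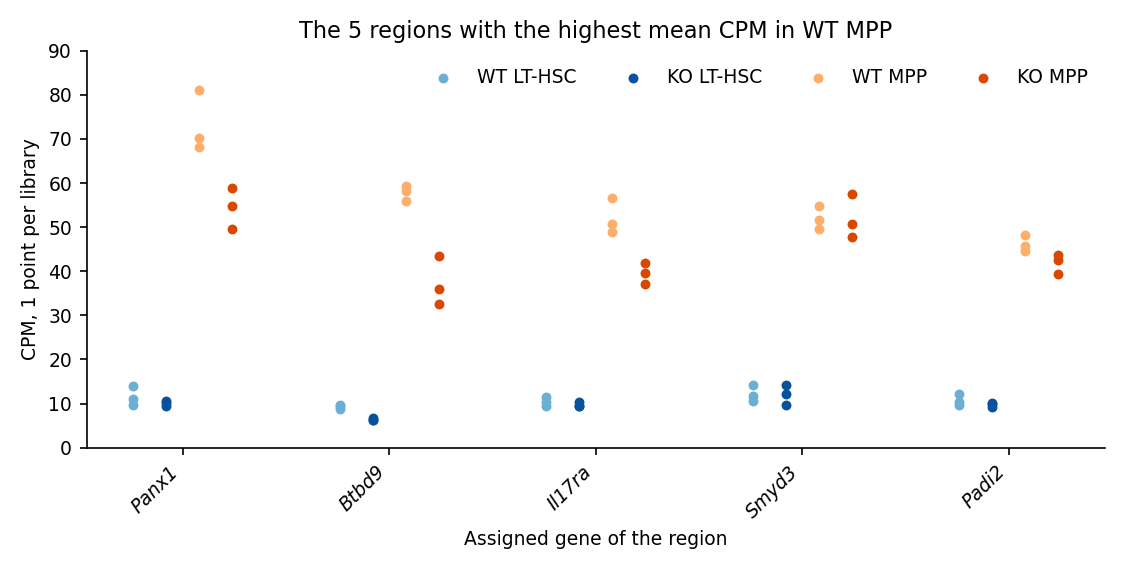
CPM in each of the 12 libraries at the 5 regions with the highest WT MPP mean, by assigned gene, on a linear axis from 0. MPP libraries of both genotypes lie above LT-HSC libraries at every region. At Panx1, Btbd9, Il17ra and Padi2 the KO MPP points lie below those of WT MPP, and at Smyd3 they overlap.

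The largest ratios came from regions nearly closed in LT-HSC. The largest was in Coq2, a ubiquinone synthesis gene (chr5:100656333-100656782), with 20.3, 22.5 and 17.5 CPM in WT MPP and 0.470, 0.488 and 0.420 CPM in WT LT-HSC. The KO libraries held 22.1, 21.0 and 21.0 CPM in MPP and 0.621, 0.385 and 0.132 CPM in LT-HSC, a log2 fold change of 5.67 ± 0.18 (adjusted p = 7.43e-22). It was again the largest ratio in KO, at 56.3 against 43.8 in WT. The next in WT was in Tiam1, the gene for an activator of the GTPase Rac, at 6.50 ± 1.07 CPM in WT MPP and 0.166 ± 0.0142 CPM in WT LT-HSC, with 6.94 ± 0.890 and 0.248 ± 0.0333 CPM in KO.

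Members in Trps1, a GATA-type repressor gene, 20.8 kb from Mgat4a, a glycosyltransferase gene, and in Xrcc6, the gene of the DNA repair protein Ku70, had WT ratios of 31.7, 31.0 and 28.7. The KO ratios at Trps1 and Mgat4a were 22.8 and 19.5. The one in Xrcc6 held 13.5, 15.4 and 14.2 CPM in WT MPP and 9.17, 9.47 and 9.42 CPM in KO MPP. Those libraries did not overlap and the region was lower in KO (log2 fold change -0.59 ± 0.10, adjusted p = 0.000399). It too was picked by its WT means. The other regions of this group (Slco3a1, Ccdc93, Ttc39b, Bdkrb2, Zfp536, Lactb2 and Osbpl3) had WT ratios of 28.4 to 35.6. At Slco3a1 and Osbpl3 the 3 WT MPP libraries were uneven, 9.03, 10.8 and 4.37 and 10.8, 14.7 and 4.54 CPM, with library 3 the lowest in both.

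The members were spread over 1369 assigned genes, with 1138 genes holding 1 member, 181 holding 2 and 50 holding 3 or more. Gene bodies held 939 members and 725 lay between genes, at a median gap of 15.9 kb. The median length was 464 bp. Distal regions that also reached 5 CPM in WT MPP but fell under the 4-fold limit (26706 regions) were not otherwise matched on level. They had 59.1% in gene bodies against 56.4% of members. Their median distance to the nearest gene end was 13.2 kb against 15.7 kb. In the turned-round set of 1426 regions these values were 65.6% and 26.8 kb. By chromosome, members made up 0.812% (chromosome 3) to 1.38% (chromosome 16) of the distal regions. Another member lay within 20 kb of 292 members (17.5%), against 12.1% in the turned-round set, and 19 runs of 3 or more members were chained at that distance.

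The longest run held 5 members over 41.4 kb at Acod1 and Kctd12 (chr14:103007662-103049069). Acod1 makes itaconate in activated myeloid cells, and 4 of its 9 distal regions were members. The strongest, whose sequence is shown above, held 15.7, 16.7 and 16.1 CPM in WT MPP and 1.82, 1.23 and 3.03 CPM in WT LT-HSC. KO MPP held 18.4, 18.9 and 19.1 CPM, all above the WT MPP libraries, but the difference did not pass (log2 fold change 0.25 ± 0.11, adjusted p = 0.17). Runs of 4 lay at Atp8b4, Npc2, and Cd33 with Zfp658.

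Atp8b4, the gene for a phospholipid flippase, had the most members, 6 of its 52 distal regions, with WT MPP means of 5.39 to 17.4 CPM and ratios of 4.30 to 7.83 in WT and 4.35 to 7.06 in KO. Its strongest member (chr2:126466632-126467125) held 17.6, 18.6 and 16 CPM in WT MPP, 3.26, 5.19 and 3.72 CPM in WT LT-HSC and 17.5, 17.8 and 15.6 CPM in KO MPP, with WT and KO overlapping. Its strongest gene-end region opened along with them, from 3.86 ± 0.391 CPM in KO LT-HSC to 18.2 ± 0.609 CPM in KO MPP (log2 fold change 2.26 ± 0.12, adjusted p = 4.58e-17).

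Runx1, a master transcription factor of blood formation, had 5 members among its 110 distal regions. The strongest (chr16:92715470-92716392, in the gene body) held 31.1, 27.3 and 33.3 CPM in WT MPP and 3.97, 4.13 and 5.22 CPM in WT LT-HSC. KO held 31.6, 35.1 and 34.7 CPM in MPP and 4.0, 4.72 and 5.43 CPM in LT-HSC, so the populations did not overlap in either genotype while WT and KO did. The other 4 had WT MPP means of 5.88 to 15.8 CPM, and none of the 5 passed in a genotype comparison (lowest adjusted p = 0.128, in LT-HSC).

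Other genes with 4 members included B4galt5, a galactosyltransferase gene, Coq2, Sema4d, a semaphorin gene, and Abr, a gene for a regulator of Rac. Ankrd44, Rftn1, a lipid raft protein gene, and Sorl1, a sorting receptor gene, also had 4. The genes named are not all those with 4 members. Of these 7, B4galt5, Abr, Ankrd44 and Rftn1 also had distal regions of the opposite kind. Rftn1 had a member (chr17:50097742-50098241) at 16.4 ± 3.16 CPM in WT MPP and 0.778 ± 0.331 CPM in WT LT-HSC. Another of its regions (chr17:49996527-49997033) was at 0.516 ± 0.186 and 7.88 ± 0.547 CPM in the same groups, and in KO it was lower in MPP (log2 fold change -4.15 ± 0.18, adjusted p = 8.12e-19). In all, 177 genes had both members and regions of the turned-round set.

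Gene ends of the member genes moved less than the members, which were chosen for a large change while gene ends were not. That contrast is therefore a description. Of 2185 tested regions within 1 kb of an end of a member gene, 854 (39.1%) were higher in KO MPP than in KO LT-HSC, against 31.4% of all 24490 gene-end regions. In the other direction 595 (27.2%) were lower, against 33.6%. Their median log2 fold change was 0.08, against -0.01 over all gene ends. Of 1193 member genes with such a region, 656 had at least 1 that was higher, 463 had at least 1 that was lower and 151 had both. A change of 2-fold or more upward was seen at 236 of these regions (10.8%, against 6.81% of all gene ends). Among all other distal regions of the member genes 40.8% were higher, against 31.6% of the distal regions of other genes. No test of these shares as lists was made.

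At several member genes the strongest gene end was nearly level while the member was not. Panx1 held 29.1 ± 0.330 CPM in KO LT-HSC and 29.3 ± 1.46 CPM in KO MPP at its gene end (log2 fold change 0.01 ± 0.07, adjusted p = 0.868). Coq2 held 12.6 ± 1.12 and 12.5 ± 0.475 CPM (log2 fold change 0.01 ± 0.09, adjusted p = 0.955). At Osbpl3, an oxysterol-binding protein gene, and Ttc39b the gene end was lower in KO MPP (log2 fold change -0.48 ± 0.06 and -0.80 ± 0.06), opposite to the member. At Cebpb, a C/EBP factor gene, Ctsg, the cathepsin G gene of neutrophil granules, and Siglech, a plasmacytoid dendritic cell receptor gene, the gene end was higher, by 1.15 ± 0.09, 2.01 ± 0.15 and 2.90 ± 0.23.

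Among 12 gene lists, the share of distal regions that were members ran from 0 to 4.60%, beside 1.15% of all distal regions. The lists were drawn up with earlier results of these data known, and the shares are descriptions. Genes of granule and secreted proteins had the highest share, 4 of 87 regions. Ctsg had 2 of them, and the stronger (chr14:56105031-56105865) held 9.01, 8.82 and 8.77 CPM in WT MPP and 0.705, 0.402 and 0.600 CPM in WT LT-HSC. KO held 8.30, 8.01 and 8.67 CPM in MPP and 0.405, 0.315 and 0.397 CPM in LT-HSC, and the populations were well apart in both genotypes. The other 2 were at Srgn, the gene for the granule proteoglycan serglycin, and Cst7, a cystatin gene (6.87 ± 0.400 CPM in WT MPP and 1.30 ± 0.166 CPM in WT LT-HSC). Of 23 gene ends of this list 18 were higher and 1 lower in KO MPP, with a median log2 fold change of 1.93. Of all gene-end regions 31.4% were higher and 33.6% lower.

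The list of mast cell, basophil and eosinophil genes had 5 members of 118 regions (4.24%). A pair lay in Hdc, which encodes the histamine-making enzyme. The stronger (chr2:126602151-126602580) held 19.3, 20.4 and 17.8 CPM in WT MPP and 1.65, 1.09 and 1.77 CPM in WT LT-HSC. In KO it held 22.0, 20.7 and 20.1 CPM in MPP and 1.68, 0.840 and 1.10 CPM in LT-HSC (log2 fold change 4.07 ± 0.15), while the strongest Hdc gene end had a log2 fold change of -0.09 ± 0.11 (adjusted p = 0.475). Fcer1g, the signalling chain shared by Fc receptors, Cpa3, a mast cell protease gene, and Mitf, a mast cell transcription factor gene, had 1 member each.

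Surface and receptor genes of MPP had 11 members of 326 regions (3.37%), 3 each at Emb and Cd33 and 1 each at Itgb7, Cd47, Cd52, Plac8 and Spn. Cd52, a lymphocyte and progenitor surface glycoprotein gene, had a member (chr4:134097156-134097656) at 15.5 ± 2.22 CPM in WT MPP and 2.16 ± 0.471 CPM in WT LT-HSC. Myeloid cytokine receptor genes had 8 of 255 (3.14%), at Cxcr4 (3), Il17ra (2), Fcgr2b, Itgam and Cx3cr1. Itgam, the CD11b gene, had one (chr7:128050638-128051174) at 13.6 ± 1.64 CPM in WT MPP and 2.80 ± 0.607 CPM in WT LT-HSC. Myeloid transcription factor genes had 14 of 556 (2.52%): 5 at Runx1, 3 at Trib1, 2 at Nfil3 and 1 each at Hhex, Cebpb, Klf4 and Per3. The Cebpb member (chr2:167759942-167760388) lay 69.5 kb from the gene, at 26.0, 28.3 and 26.5 CPM in WT MPP, 5.32, 6.05 and 8.18 CPM in WT LT-HSC, 25.8, 23.9 and 23.3 CPM in KO MPP and 6.13, 7.21 and 7.46 CPM in KO LT-HSC, where WT and KO overlapped in LT-HSC and not in MPP (adjusted p = 0.468).

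Early lymphoid and B cell genes had 10 of 503 (1.99%). Dntt had 2 members, the stronger in its body (chr19:41039095-41039527) with 12.9, 13.3 and 14.7 CPM in WT MPP and 1.56, 1.15 and 2.82 CPM in WT LT-HSC. Ccr9, a thymus-homing receptor gene, also had 2, and Ikzf1, Ebf1, Igll1, Blk, Satb1 and Lef1 had 1 each. Cell cycle genes had 6 of 300 (2.0%), among them Cdk6, the kinase of early G1, with 19.8 ± 0.668 CPM in WT MPP and 3.83 ± 0.234 CPM in WT LT-HSC. The T and NK cell list had 2 of 232 (0.862%), at Notch1 and Cd2, and the megakaryocyte and erythroid list 1 of 159 (0.629%), at Gfi1b. The dendritic cell and macrophage list had 2 of 156 (1.28%), at Siglech and Itgax.

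Genes of HSC identity had 0 members among 537 distal regions and 17 regions of the turned-round set, at 7 genes. Of those 537, 386 were lower and 41 higher in KO MPP than in KO LT-HSC, with a median log2 fold change of -1.13. Of all distal regions 33.8% were lower and 34.2% higher, with a median of 0.02. Endothelial and stromal genes, a list for cells other than blood, had 5 of 213 (2.35%), 1 each at Pecam1, Pdgfrb, Kdr, Flt1 and Cdh5. Their gene ends went the other way, with 1 of 20 higher and 14 lower in KO MPP (median log2 fold change -0.98). The shares of all gene-end regions were 31.4% higher and 33.6% lower.

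**Figure D4:**
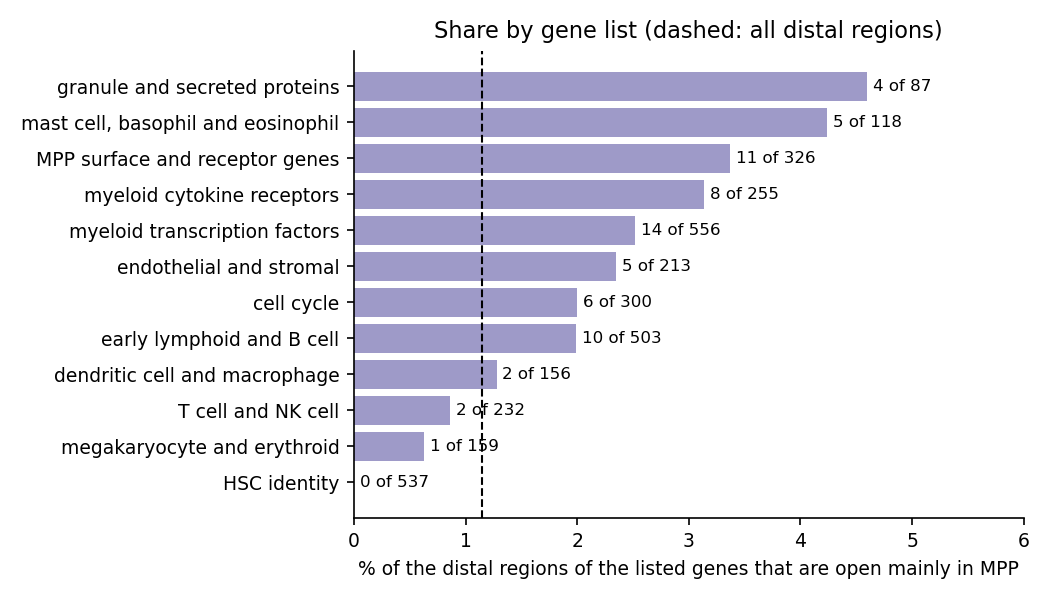
Percent of the distal regions assigned to each list's genes that were open mainly in MPP, with counts beside the bars and a dashed line at the 1.15% of all distal regions. Granule protein genes are highest at 4.60% and HSC identity genes are at 0.

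Signal of other cell types was followed at the strongest gene end of Cd3e, Itgam, Cdh5 and Adgre1. All 4 were higher in KO MPP than in KO LT-HSC. Cd3e, a T cell receptor chain gene, went from 0.507 ± 0.228 to 2.66 ± 0.0903 CPM, and Adgre1, the F4/80 gene of macrophages, from 0.877 ± 0.0446 to 5.62 ± 0.384 CPM. Itgam went from 6.05 ± 0.0676 to 7.94 ± 0.232 CPM and Cdh5, the endothelial cadherin gene, from 0.355 ± 0.130 to 0.698 ± 0.0468 CPM. The part of other cells in the MPP signal was not tested.

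In MPP the members were more often lower than higher in KO, but the counts moved with the libraries that chose the regions. Of the 1664 members, 231 (13.9%) were lower in KO MPP and 37 (2.22%) higher, beside 3.59% lower and 5.12% higher of all tested regions, and nothing is read from that gap because the WT MPP means entered the rule. The median log2 fold change of the members was -0.10, against -0.01 over all regions. Changes were small: 3 called members were 2-fold or more lower and 0 were 2-fold higher. The 102 members with 20 CPM or more in WT MPP had 25 lower and 0 higher. Nothing is read from that split either, because the cut was made on the same WT MPP means. Shares over all regions are not given for the 2-fold counts or for this level.

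Chosen in the KO libraries instead, 1547 regions had 125 lower and 109 higher, with a median of -0.005. The 1229 regions chosen in both genotypes had 120 lower (9.76%) and 37 higher (3.01%). A further choice, made after seeing the data, applied the rule to a single WT library of each population and left that WT MPP library out of the test. With library 1, 2 and 3 used in this way, 178, 128 and 218 regions were lower and 44, 59 and 14 higher, of 1764, 2159 and 1341. The lower share was 10.1%, 5.93% and 16.3%, against 2.43%, 2.02% and 2.72% of all regions in the same fits, and the median log2 fold change was -0.07, -0.01 and -0.14. Lower regions outnumbered higher ones in each of these choices, but the size of the excess depended on it. For the original members, leaving out WT MPP library 2 gave 130 lower and 36 higher, KO MPP library 2 gave 109 and 13, and KO MPP library 3 gave 117 and 9. The higher count also dropped to 14 without WT MPP library 3 and to 22 without KO MPP library 1. Once the share of counts at gene ends was a covariate, 105 were lower and 5 higher.

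**Figure D5:**
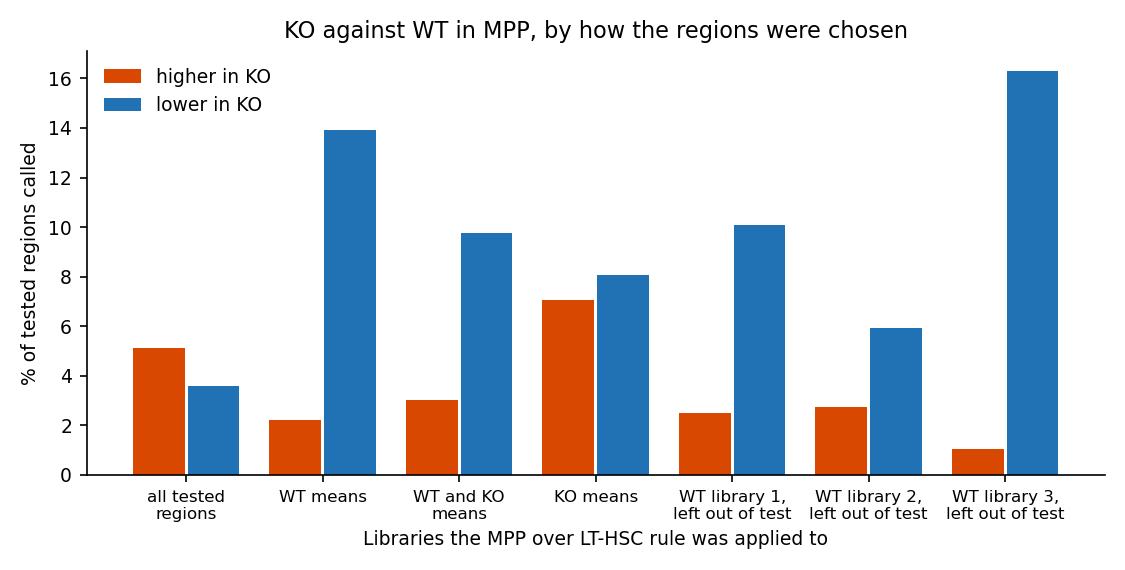
Percent of regions higher (orange) and lower (blue) in KO than in WT MPP, for all tested regions and for distal regions chosen by the MPP over LT-HSC rule in different libraries. The lower share is 13.9% when the WT means choose, 8.08% when the KO means choose and 5.93% to 16.3% when 1 WT library chooses and is left out of the test.

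The 6 members named here for their losses in KO MPP passed under every one of the 21 other fits. Those fits reused the WT MPP libraries that chose the regions, so they cannot remove the effect of that choice. The losses are therefore descriptions and are not read as an effect of Phf6. The largest was in Ptpro, a receptor tyrosine phosphatase gene (chr6:137316322-137316787), with 5.46, 7.02 and 6.80 CPM in WT MPP and 3.48, 2.04 and 2.71 CPM in KO MPP, a log2 fold change of -1.22 ± 0.16 (adjusted p = 2.75e-05). All 3 KO libraries were below the lowest WT library. In LT-HSC it held 0.529, 0.746 and 1.05 CPM in WT and 0.486, 0.455 and 0.529 CPM in KO (adjusted p = 0.278). Near Matn2, a matrix protein gene (chr15:34295732-34296343), the WT MPP libraries held 7.31, 9.54 and 11.0 CPM and the KO libraries 5.15, 3.36 and 4.23 CPM (log2 fold change -1.11 ± 0.15, adjusted p = 3.7e-05). The groups did not overlap there either.

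Hps4, a gene for the biogenesis of lysosome-related organelles, fell from 5.01 ± 0.317 to 2.47 ± 0.491 CPM (log2 fold change -1.0 ± 0.15), and its WT mean lay just above the 5 CPM limit of the rule. Ppm1h, a phosphatase gene, fell from 5.74 ± 0.441 to 2.88 ± 0.283 CPM (-0.98 ± 0.15). Rin2, a Rab5 activator gene, fell from 5.91 ± 0.735 to 3.04 ± 0.570 CPM (-0.96 ± 0.16). Klrb1a, an NK cell receptor gene, fell from 5.53 ± 0.259 to 2.81 ± 0.561 CPM (-0.96 ± 0.16). In all 6 the level in KO MPP remained well above that in KO LT-HSC, with ratios of 3.46 (Rin2) to 11.1 (Ppm1h).

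The largest gains in KO MPP were smaller. Because the WT MPP means entered the rule, nothing is read from that difference in size. In Atp8a1, another flippase gene (chr5:67823622-67824141), WT MPP held 6.31, 5.75 and 6.34 CPM and KO MPP 10.3, 8.83 and 9.50 CPM (log2 fold change 0.67 ± 0.13, adjusted p = 0.0011). The KO libraries all lay above the WT libraries. Trub2, a pseudouridine synthase gene, rose from 6.44 ± 0.861 to 9.76 ± 0.734 CPM, Kansl2, an acetyltransferase complex gene, from 5.66 ± 1.35 to 8.32 ± 0.148 CPM, and Asb17 from 5.56 ± 1.35 to 8.24 ± 0.316 CPM. These 4 lost their call when that share was a covariate (adjusted p = 0.0765 to 0.296) and in no other fit. Ank, a pyrophosphate transporter gene, rose by 0.56 ± 0.12 on the log2 scale, from 5.67 ± 0.644 to 8.13 ± 0.0183 CPM, and kept its call in all 21. Klf7, a Krüppel-like factor gene, at 7.86 ± 2.05 and 11.1 ± 0.609 CPM, lost it in 7, among them DESeq2 and leaving out any of 5 MPP libraries (all but WT 1).

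In LT-HSC, where members are nearly closed, few differed by genotype. In KO 39 were higher and 21 lower, beside 3.27% higher and 1.47% lower of all tested regions, shares of 2.34% and 1.26% in the members. The WT LT-HSC means also entered the rule. The split turned with the scaling, to 22 higher and 34 lower by total counts and to 21 and 26 with a loess offset. Regions chosen in the KO libraries gave 16 and 29. With 1 WT library choosing and left out the counts were 16 and 27, 15 and 21, and 38 and 14. Leaving out a library moved the higher count to 17 (WT LT-HSC 1), 15 (WT LT-HSC 2), 14 (KO LT-HSC 2) or 21 (KO LT-HSC 3). The lower count moved to 10 (WT LT-HSC 3 or KO LT-HSC 1), 6 (KO LT-HSC 2), 9 (KO LT-HSC 3) or 34 (WT MPP 3). No direction is therefore given for the members as a group.

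Among the members higher in KO LT-HSC, Rfx3, a transcription factor gene of ciliated cells (chr19:28009729-28010168), went from 1.35, 0.832 and 1.26 CPM to 2.05, 2.73 and 2.25 CPM (log2 fold change 1.08 ± 0.19, adjusted p = 0.00123). Its libraries did not overlap. Ebf1, the gene of the early B cell factor (chr11:44881057-44881708), went from 2.12, 1.46 and 2.28 to 2.59, 3.46 and 4.24 CPM (log2 fold change 0.84 ± 0.16, adjusted p = 0.00253). Its MPP means, 12.9 ± 0.643 for WT and 12.8 ± 0.415 CPM for KO, came from libraries that overlapped. The largest loss that held in all 21 other fits was 89.0 kb from Fyn, a Src-family kinase gene (chr10:39280343-39280781), from 1.44, 1.38 and 2.16 to 0.865, 0.665 and 0.353 CPM (log2 fold change -1.25 ± 0.24, adjusted p = 0.00219). It was lower in KO MPP too (log2 fold change -0.52 ± 0.11).

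The other named calls in LT-HSC rested on few counts. Higher in KO were members at Tgfbr2, a TGF-beta receptor gene (0.774 ± 0.106 to 1.27 ± 0.0724 CPM), Vapa, Asb17 and Mrps33, and lower were members at Ppfibp2, Arid5b, Siglece, Dynlt1b and Rspo1, a Wnt agonist gene (1.05 ± 0.0966 to 0.492 ± 0.139 CPM). Leaving out a single LT-HSC library ended the call of each of these 9 in at least 2 cases, and Mrps33 lost its call in 16 of 21 fits. Highest adjusted p over those fits was 0.0701 for Tgfbr2, 0.136 for Rspo1 and 0.190 for Mrps33.

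The interaction tested whether the step from LT-HSC to MPP itself differed between genotypes. By edgeR 0 of 1664 members passed, beside 0.00805% of all tested regions (15 of 186373). At an unadjusted p under 0.05 there were 191 of 1664 members, beside 14082 of all 186373 tested regions. Among the 26706 distal regions with 5 CPM or more in WT MPP but under the 4-fold limit there were 2840. DESeq2 called 5 members, all with a smaller step in KO. Its share over all regions is not given here, so that count is a description. Nothing is read from the direction either, because the WT libraries chose the regions. The lowest p was at Uvrag, an autophagy gene (chr7:99086935-99087393). WT held 2.70, 2.78 and 2.37 CPM in LT-HSC and 27.0, 32.3 and 27.7 CPM in MPP. KO held 3.16, 3.08 and 4.54 CPM in LT-HSC and 22.6, 21.1 and 19.2 CPM in MPP, higher in each LT-HSC library and lower in each MPP library than in WT (log2 difference -0.93 ± 0.18, adjusted p = 0.0641). Members at Ssh2, a cofilin phosphatase gene, and Ubxn11 followed (-0.68 ± 0.14 and -0.76 ± 0.16, adjusted p = 0.118 and 0.127). Over 20 alternatives the adjusted p at Uvrag ran from 0.00481 to 0.332 and passed in 3 of them (DESeq2, a replicate block, and without WT MPP library 3).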

How the data were processed

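ATAC-seq libraries of 4 groups of 3 were sequenced in 1 pool as paired reads of 75 nucleotides on a NextSeq 500, per the labels' protocols. The authors deposited 1 table of read counts per region and library. Tools named, per the submitters' processing notes, were MACS2 2.1.1, DESeq2 1.22.1, featureCounts, cutadapt and Bowtie2, with GRCm38 as the build. No order or settings were given there.

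Regions were placed by RefSeq genes (GRCm38) whose table gives no strand, so both gene ends were treated alike. An assigned gene is the one that overlaps the region or lies nearest. CPM were counts over the column total, not scaled by length. Counts were tested with edgeR 4.0.16 (R 4.3.3) by quasi-likelihood with TMM scaling, filterByExpr (186373 regions tested, 1889 left out) and 1 mean per group over all 12 libraries. P-values were adjusted by Benjamini-Hochberg over all tested regions. An exact permutation test of 3 against 3 cannot go below 0.1 and was not used. DESeq2 1.42.0, other scalings, filters, rule limits, a replicate block, a gene-end covariate and fits without each library were alternatives. The code was tested on simulated data.

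Named regions were the 12 with the highest WT MPP level, the 12 with the largest WT ratio, those of the 10 genes with most members, up to 3 with the highest level per gene list, the 6 with the largest called change and no overlap in each direction and population, the 3 with the lowest interaction p, and the 4 nearest each side of each limit, all by genes other than predicted models. The members and the lists were chosen with earlier results of these data known. A few genes that these rules and lists hold are not reported here.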

Additional observations from a re-analysis of the deposited data

How the results depend on the processing

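The opening of all members in KO held in every fit. Their number, 1664, was 2586 at 3-fold, 874 at 6-fold, 3136 at 3 CPM and 546 at 10 CPM, and all were higher in KO MPP. Members higher in KO MPP (37) numbered 5 with the gene-end covariate, 9 at an adjusted p under 0.01, 69 at 3-fold, 90 at 3 CPM, 11 at 10 CPM, 109 when KO libraries chose, 59 and 14 when WT library 2 and 3 chose, and 9 to 48 without 1 library. Members lower (231) numbered 105 with the covariate, 113 at p under 0.01, 128 at 6-fold, 102 at 10 CPM, 125 when KO libraries chose, 128 when WT library 2 chose, and 109 to 282 without 1 library. Members higher in KO LT-HSC (39) numbered 22 by total counts, 21 with loess, 7 with the covariate, 18 with the groups alone, 9 at p under 0.01, 79 at 3-fold, 11 at 6-fold, 16 when KO libraries or WT library 1 chose, 15 with WT library 2, and 14 to 53 without 1 library. Members lower there (21) numbered 34 by total counts, 6 with the covariate, 9 with the groups alone or at 10 CPM, 2 at p under 0.01, 44 at 3-fold, 10 at 6-fold, and 6 to 34 without 1 library. Gene ends higher (854) numbered 439 with the covariate, 503 at 6-fold, 1346 at 3 CPM and 359 at 10 CPM. Interaction calls (0) numbered 5 by DESeq2 and 0 to 1 without 1 library. The cause of these shifts was not tested. Whether same-numbered libraries share an animal was not settled, and the main fits did not pair them. Correlations of same-numbered deviations between LT-HSC and MPP were 0.073 to 0.114 in WT and 0.054 to 0.064 in KO. Across genotypes they were -0.037 to 0.033. With the replicate block 49 members were higher and 283 lower in KO MPP, 50 and 36 in KO LT-HSC, and 4 passed in the interaction. Low counts limit LT-HSC values. Shares over all regions under the settings of this paragraph are not given here.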
